A study of Mus musculus with 2 samples.

Results

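The CD8 cytotoxic T cells described here are intestinal lymphocytes that carried transcripts of the CD8α chain (Cd8a), of the CD3 chains of the T cell receptor complex and of at least 1 of 3 effector proteins, granzyme A, granzyme B and the chemokine CCL5. They were chosen by counts of unique molecular identifiers (UMIs, each standing for 1 captured transcript) in single cells. A cell was a member when it had at least 1 Cd8a UMI, at least 2 UMIs of Cd3d, Cd3e and Cd3g together, at least 5 UMIs of Gzma, Gzmb and Ccl5 together and none of Foxp3, the transcription factor of regulatory T cells. Of 6736 kept cells, 115 met this rule, 113 of them in the wild-type library (3.33% of 3397 kept cells, exact 95% binomial interval 2.75% to 3.99%) and 2 in the Zfp36-/- library (0.0599% of 3339, interval 0.00725% to 0.216%). Intervals throughout cover counting error only, since each genotype was a single library and no test between samples was possible.

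The study concerned innate lymphoid cells in mice lacking Zfp36, the gene of the mRNA-destabilizing protein tristetraprolin. Lymphocytes from the lamina propria of the small intestine were taken from C57BL/6 mice, either wild type (WT) or Zfp36-/-, and sorted as live CD45+, lineage-negative, CD3-, TCRβ-, CD90.2+ and CD127+ cells. Cells of 4 mice were pooled for each genotype and run as 1 droplet library of 3 prime transcript tags. Ages, treatments and the deleted stretch of Zfp36 are not given in the sources used here. The libraries held 3593 barcodes with 24721524 UMIs (WT) and 3522 barcodes with 27733804 UMIs (Zfp36-/-), and shared 2 barcode sequences, none of them in a member. Zfp36 itself was counted at 637 CPM (UMIs of a gene scaled to the total UMIs of the cells summed) over all kept WT cells and at 376 CPM over all kept Zfp36-/- cells. A 3 prime tag can lie outside a deletion, so this value does not check the genotype.

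The sort was meant to exclude cells with CD3 or TCRβ on their surface, yet 1312 kept WT cells (38.6%, interval 37.0% to 40.3%) and 123 kept Zfp36-/- cells (3.68%, interval 3.07% to 4.38%) had at least 2 CD3 UMIs. By the rule, every member is a cell whose transcripts go against the labelled gate. Members made up 8.61% (interval 7.15% to 10.3%) of the WT cells with CD3 transcripts and 1.63% (interval 0.198% to 5.75%) of the Zfp36-/- ones. How such cells passed the gate was not tested, and the share of members in each library need not be their share in the tissue. Whether members lay within the epithelium or in the lamina propria was not measured.

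CD8 is a coreceptor for class I MHC molecules that occurs as a heterodimer of α and β chains on conventional cytotoxic T cells and as a homodimer of α chains on many T cells of the gut epithelium. Intraepithelial T cells bear either an αβ or a γδ T cell receptor. Those known as natural intraepithelial T cells typically lack CD8β, carry little CD5, CD28 and Thy1, and use the Fc receptor γ chain and NK-type receptors, whereas induced ones derive from conventional T cells. Both kinds are known for granzymes, for the integrin CD103, which binds E-cadherin on epithelial cells, and for staying in the tissue.

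The given markers were checked first. Members held 980 CPM of Cd8a, 6345 CPM of Gzma, 1540 CPM of Gzmb and 16760 CPM of Ccl5, as the rule required, and these levels are a description only. Klre1, an NK receptor gene that the rule did not use, was detected in 18 members (15.9%), at 97.0 CPM. It thus marked a minority of the cells. NK and ILC1 cells of the same library held 226 CPM of it, but their own rule counted Klre1, so that level is a description only. In ILC2 cells, which should lack these genes and served as the level given by free RNA, Cd8a was counted at 0.547 CPM, Gzma at 5.75 CPM, Gzmb at 6.30 CPM and Klre1 at 0.821 CPM. Median depths were alike in the groups compared, at 5400 UMIs per member, 5178 in 207 NK and ILC1 cells, 5132 in 878 CD8-negative αβ T cells and 6339.5 in 512 ILC2 cells. Of the 5 markers, only Klre1 was independent of the rule for members, and it was found in few of them. Genes that mark intraepithelial T cells, such as Itgae, are described below.

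The effector minimum of 5 UMIs fell into a gap in the data. Of 154 WT cells with Cd8a and CD3 transcripts, 41 fell below it, with 0 to 3 effector UMIs, and members held 9 to 1099 with a median of 94. A single member had fewer than 10. Ccl5 alone reached 5 UMIs in all 113 members, with a range of 5 to 560 and a median of 77, so that the 2 granzymes decided no membership. The cells below the minimum, which number too few for more than a description, held 329 CPM of Ccr7, a lymph node homing receptor of circulating T cells, against 2.55 CPM in members. S1pr1, the receptor for egress into lymph, stood at 213 CPM below the minimum and 10.2 CPM in members, and Tcf7, a transcription factor of naive and memory T cells, at 290 CPM and 125 CPM. Itgae, the CD103 gene, stood the other way at 87.4 CPM and 360 CPM. Cd8b1 was present on both sides of the minimum, at 783 CPM and 589 CPM.

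Most members carried transcripts of the CD8β chain and of the T cell receptor α constant region. Cd8a (chr6:71373427-71379173) and its neighbour Cd8b1 (chr6:71322788-71337494), which encode the CD8 chains, were counted with a median of 6 UMIs per member (range 1 to 22) and 3 UMIs per member (range 0 to 24). Cd8b1 was detected in 83 of 113 members (73.5%, interval 64.3% to 81.3%) and in 0.483% of NK and ILC1 cells. When each cell was thinned to 2000 UMIs, which left out 2 members, the share was 57.7%, so that the number of cells without a Cd8b1 UMI, 30 at full depth, depended on depth. Trac (chr14:54220521-54224206) had a median of 4 UMIs per member and was found without Trdc in 100 members (88.5%, interval 81.1% to 93.7%). Trdc, the constant region of the δ chain (chr14:54142851-54148868), occurred in 10 members (8.85%, interval 4.33% to 15.7%), in 3 of them without Trac and in 7 with it, and 3 members had neither. Trdc was concentrated rather than spread thinly, since 8 of the 10 cells held at least 10 UMIs, up to 26.

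Summed over cells, Trac was common to members and CD8-negative αβ T cells, while Tcrg-C2 was higher in members than in each comparison group. The rule for CD8-negative αβ T cells counted Trac, so its level in them was in part set by the rule. Trac stood at 707 CPM in members, 942 CPM in CD8-negative αβ T cells, 32.1 CPM in NK and ILC1 cells and 6.84 CPM in ILC2 cells. Trbc1 and Trbc2, the β constant regions, gave no such contrast, since NK and ILC1 cells held 1031 CPM and 839 CPM and ILC2 cells 1069 CPM and 1073 CPM, against 778 CPM and 1656 CPM in members. Tcrg-C2 (chr13:19304649-19307551), a γ constant region, was detected in 85 members (75.2%), at 430 CPM. It was found in 23.6% of CD8-negative αβ T cells (118 CPM), 5.80% of NK and ILC1 cells (11.6 CPM) and 2.93% of ILC2 cells (4.65 CPM). Tcrg-C4 stood at 270 CPM in members, at 297 CPM in NK and ILC1 cells and at 54.4 CPM in CD8-negative αβ T cells (log2 ratio of members over them 2.31, interval 2.05 to 2.57), so that it did not set members apart from NK and ILC1 cells. Of the 113 members, 92 had at least 2 UMIs of both the αβ and the γδ chains, 21 of the αβ chains only and 0 of the γδ chains only. Transcripts of the γ chain thus occurred in most cells that also held αβ chains. The αβ set included Trbc1 and Trbc2, which NK and ILC1 cells and ILC2 cells held too. This split therefore does not give the receptor type of a cell.

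**Figure D1:**
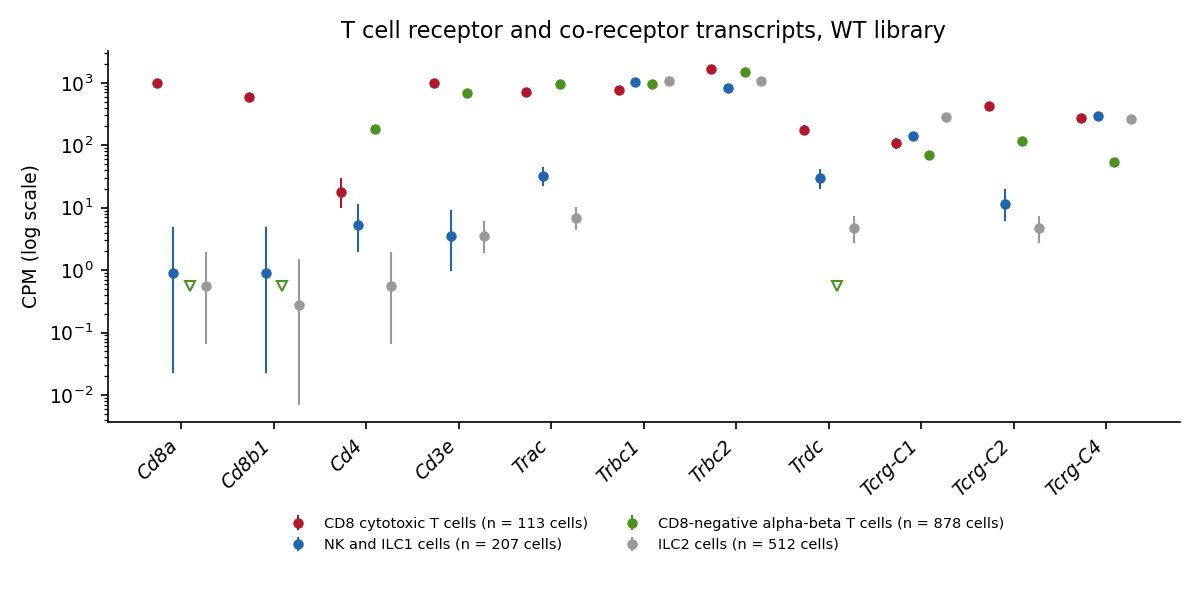
Levels of CD8, CD4, CD3 and T cell receptor genes in 4 groups of WT cells, in CPM of summed UMIs on a log scale, with exact Poisson intervals; a downward open triangle marks the level of 3 UMIs where none was counted. Members hold Cd8a at 980 CPM and Cd8b1 at 589 CPM, and Trac at a level near that of the CD8-negative αβ T cells, whose rule counted Trac (707 and 942 CPM).

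The 10 members with Trdc differed from one another in their granzymes. Of these, 5 held 43 to 435 Gzma UMIs each together with Gzmb, and the other 5 had no UMI of either. The cell with the most Gzma held 435 UMIs of it and 110 of Gzmb among 6378 UMIs, with 24 of Trdc and 17 of Tcrg-C1. The cell with the most Trdc, 26 UMIs among 17457, had no granzyme UMI and 28 UMIs of Fcer1g, the Fc receptor γ chain. All 5 cells without granzymes held Fcer1g, at 4 to 28 UMIs, whereas 4 of the 5 with granzymes held none and 1 held 21. Cd8b1 was found in 1 of the 10, as a single UMI, and in 82 of the 103 members without Trdc. Itgae was found in 9 of the 10.

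Against NK and ILC1 cells, members held more of the T cell receptor machinery and of CD103, and less of 11 of 15 measured NK receptor genes and of 4 of 5 adaptors and kinases of Fc and NK receptors. NK and ILC1 cells were those with at least 2 UMIs of Klrb1c, Klrd1, Klre1 and Klrk1 together, at least 1 of Klrb1c or Ncr1, at most 1 of CD3 and none of Foxp3, and 8 of the 207 also met the rule for ILC2 cells. Of 5138 genes with at least 50 UMIs over both groups and in neither rule, 164 (3.19%) lay 2-fold or more higher in members and 430 (8.37%) lay 2-fold or more lower, with a median log2 ratio over all of them of -0.03. NK and ILC1 cells had 1121695 UMIs in all and members 783883, so that the minimum favoured genes high in the former. Its part in the balance of higher and lower genes was not tested. Of the 207 comparison cells, 9 had a UMI of Eomes, a T-box factor of NK cells. Against those 9 alone, 364 of 2637 genes tested were higher and 136 lower. Ratios for Cd8b1 (3.81), Gzmk (3.98) and Itgae (2.68) were smaller there. With 113 members against 9 cells, the minimum of 50 UMIs favoured genes high in members. These counts therefore cannot be set beside the 164 and 430. Cd8b1 rested on 462 UMIs against 1, a log2 ratio of 9.37 (interval 6.88 to 14.68). Cd5, an inhibitor of T cell receptor signalling, was detected in 34.5% of members and in no NK or ILC1 cell. It was 46.7-fold higher with 3 counts set for the empty group, and at least 37.3-fold by the lower end of its interval. Cd6, its relative, stood at 167 CPM against 2.67 CPM, and Themis, a T cell receptor signalling protein of T cell development, at 130 CPM against 2.67 CPM, each with 3 UMIs in the NK and ILC1 cells (log2 ratios 5.97, interval 4.39 to 8.26, and, for Themis, an interval of 4.02 to 7.91).

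Integrin αE and granzyme K followed. Itgae (chr11:73090583-73147446) was detected in 72.6% of members and 2.42% of NK and ILC1 cells, at 360 CPM and 12.5 CPM (log2 ratio 4.85, interval 4.08 to 5.74). It reached 8.54% of CD8-negative αβ T cells and 1.37% of ILC2 cells, so that members stood above all 3 groups. Gzmk, a granzyme with a substrate preference other than that of granzyme B, was counted at 221 CPM against 1.78 CPM, with 173 UMIs against 2 (log2 ratio 6.95, interval 5.08 to 10.01). Tcrg-C2 (5.21, interval 4.42 to 6.14), Trac (4.46, interval 3.97 to 4.99), Gm8369 (5.89), Slfn1 (6.60, with 1 UMI in the NK and ILC1 cells), Ifi27l2a (4.23) and Fam241a (3.96) completed the 12 highest by the interval end nearest to 0.

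NK receptor genes were lower as a list. Of 26 on the list, 5 served in the NK rule, and of the other 21 genes 15 had enough UMIs. None of these 15 was higher by 2-fold and 11 were lower, with a median log2 ratio of -2.42. Klrb1b, an inhibitory NK receptor, was detected in 4.42% of members and 93.7% of NK and ILC1 cells (log2 ratio -4.82, interval -5.52 to -4.20). Klrc2, an activating partner of CD94, stood at 72.7 CPM against 388 CPM and Klrc1, its inhibitory relative, at 90.6 CPM against 281 CPM. Cd160, a receptor shared by NK cells and intraepithelial T cells, was an exception at 634 CPM and 595 CPM (log2 ratio 0.09, interval -0.08 to 0.26).

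Of the 7 adaptors and kinases that serve Fc and NK receptors, 5 had enough UMIs and 4 were lower, with a median of -1.87. Fcer1g (chr1:171229572-171234365) was counted at 231 CPM against 1700 CPM, and was detected in 16.8% of members and 99.5% of NK and ILC1 cells. Tyrobp, the DAP12 adaptor, stood at 68.9 CPM against 575 CPM. T cell receptor signalling and costimulation genes lay the other way, with 7 of 15 higher, 1 lower and a median of 0.90. Lat, the scaffold below the T cell receptor, was counted at 492 CPM against 58.0 CPM (log2 ratio 3.09, interval 2.70 to 3.49), and Cd28, the costimulatory receptor, at 177 CPM against 36.6 CPM. The 1 lower gene was Nr4a1, an immediate-early gene.

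Genes of the killing machinery were nearer to level. The rule for members required effector transcripts and that for NK and ILC1 cells did not. Of 13 cytotoxic effector genes outside the rule with enough UMIs, 1 was higher (Gzmk), 4 were lower and the median was -0.26. Nkg7, a protein of cytotoxic granules, stood at 1491 CPM and 1317 CPM (log2 ratio 0.18, interval 0.07 to 0.29), and Ctsw, a protease of cytotoxic cells, at 643 CPM and 768 CPM. Prf1, perforin, was lower at 74.0 CPM against 178 CPM (log2 ratio -1.27, interval -1.72 to -0.84), as was Serpinb9, an inhibitor of granzyme B, at 163 CPM against 622 CPM. Gzmc was held almost wholly by the NK and ILC1 cells, with 2 UMIs against 168.

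Cytokine genes were lower in members for 6 of 9 and cytokine receptor genes for 8 of 17. Of 9 measured cytokine and chemokine genes outside the rule, 0 were higher and 6 were lower (median -1.55), among them Csf2 (19.1 CPM against 220 CPM), Ccl3 (122 CPM against 708 CPM) and Xcl1, a chemokine for cross-presenting dendritic cells (412 CPM against 1207 CPM). Ccl4, another inflammatory chemokine, stood at 1518 CPM and 1631 CPM. Of 17 measured cytokine receptor genes 1 was higher (Il21r, 2.09) and 8 were lower (median -0.92). Il7r, which encodes the CD127 used in the sort, was counted at 519 CPM against 1502 CPM (log2 ratio -1.53, interval -1.69 to -1.38), and Il18r1 at 57.4 CPM against 447 CPM, with 40.0% of its member UMIs in 1 cell. Thy1, which encodes the CD90.2 used in the sort, was counted at 292 CPM against 193 CPM.

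Residency genes were divided. Of 19 measured, 5 were higher (Itgae, Itga4, Gpr18, Gpr55 and Cdh1) and 2 lower (Ccr2 and Cxcr6), with a median of 0.66. Without cells that held at least 5 macrophage and dendritic cell marker UMIs, described further below, Cdh1 had too few UMIs to be measured, Ccr2 (-0.84) was no longer past 2-fold, and Itga1 (1.14) and Cd7 (1.22) were higher. Gpr18, a receptor needed for intraepithelial T cell numbers, stood at 264 CPM against 54.4 CPM (log2 ratio 2.28, interval 1.86 to 2.72), and Cxcr6, a chemokine receptor of tissue lymphocytes, at 264 CPM against 1028 CPM. Immediate-early genes were lower for 11 of 14 (median -1.24), such as Jun, an AP-1 subunit, at 740 CPM against 1874 CPM, with Nr4a2 higher (1.61). Heat-shock genes, which also respond to handling, were neither higher nor lower for any of 9. Of 20 measured transcription factors, 2 were higher and 7 lower (median -0.35): Zeb2, a factor of terminal effector cells, was at 130 CPM against 19.6 CPM, Bcl11b, a factor of T cell identity, at 245 CPM against 90.0 CPM, and Tbx21, which encodes T-bet, at 38.3 CPM against 104 CPM. Zfp683, the HOBIT factor of resident T cells, had no UMI in members. Of 7 measured checkpoint genes only Ctla4 was higher, and of 3 measured circulation genes none lay past 2-fold.

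The remaining named genes were held mostly by NK and ILC1 cells. Gem, a small GTPase, was at 35.7 CPM against 908 CPM, Tmem176b at 49.8 CPM against 763 CPM, Socs2, a brake on cytokine receptor signalling, at 16.6 CPM against 382 CPM, Spry2 at 26.8 CPM against 497 CPM and AC163354.1 at 38.3 CPM against 614 CPM. Zmat4, Klri2, Serpina3f and Ltb4r1 had 1 to 3 UMIs in members (log2 ratios -6.76, -5.65, -4.82 and -5.75), with intervals nearest to 0 of -4.26, -3.77, -3.24 and -3.23. Plekhg1 and Mmp9 had none, and were 17.5-fold and 12.1-fold lower with 3 counts set for members (at least 13.9-fold and 9.51-fold by the nearer interval end). Of 6 measured cycling genes 5 were higher (median 2.46), but 44.2% of the Top2a UMIs of members came from 1 cell.

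**Figure D2:**
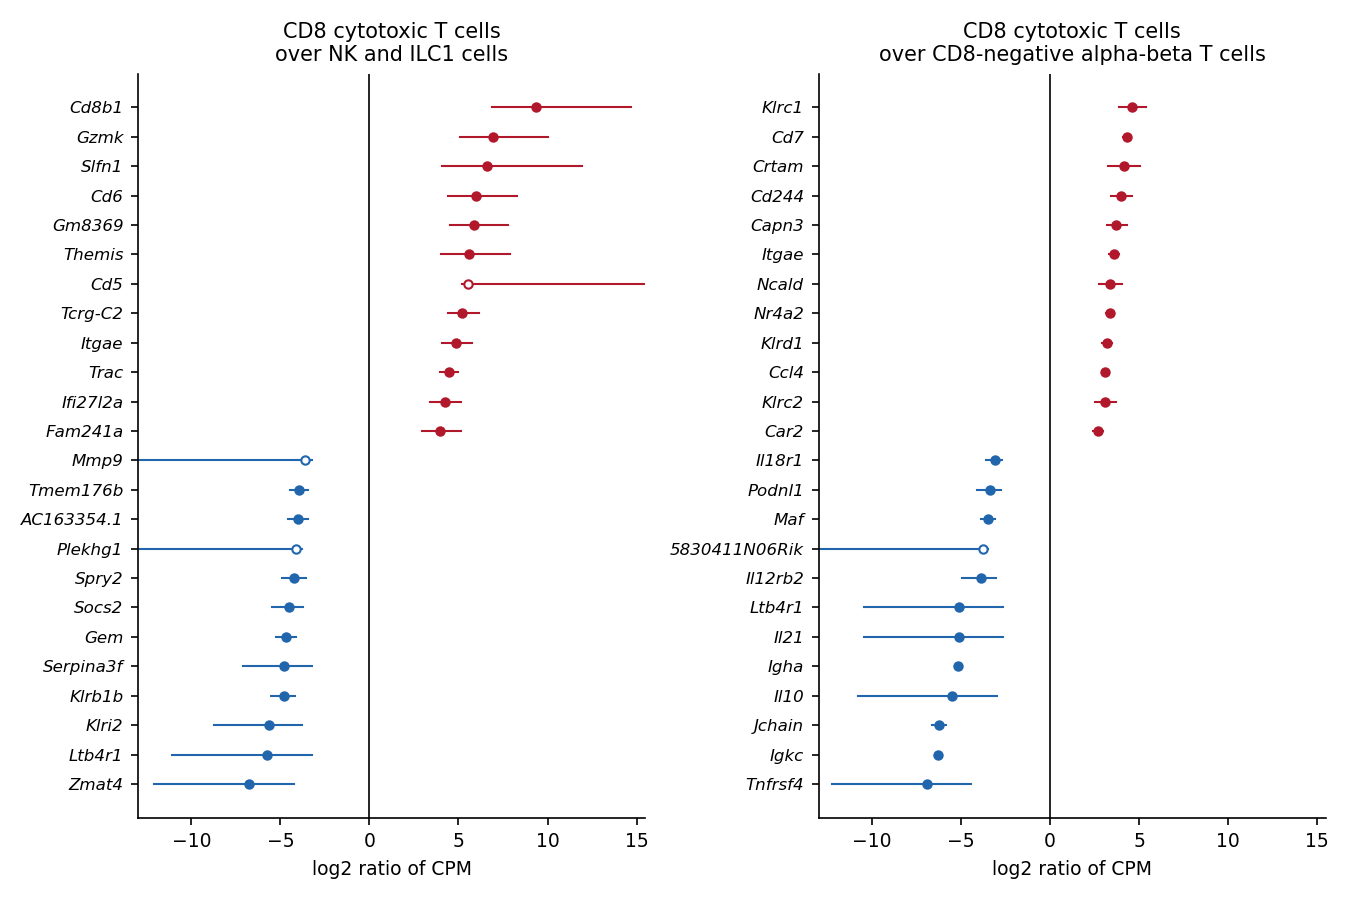
Log2 ratios of members over NK and ILC1 cells and over CD8-negative αβ T cells for the genes named by the ranking rule, with exact 95% intervals of counting error. Open markers are ratios with 3 UMIs set for the group without any. Cd8b1 lies at 9.37 and Itgae at 4.85 over NK and ILC1 cells, and Cd7 at 4.32 and Itgae at 3.59 over CD8-negative αβ T cells.

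Zfp36, the gene removed in the other genotype, was among the genes lower in WT members. It was detected in 33 members (29.2%) at 124 CPM, against 918 CPM in NK and ILC1 cells (log2 ratio -2.89, interval -3.21 to -2.59) and 712 CPM in ILC2 cells. In CD8-negative αβ T cells it stood at 389 CPM (log2 ratio of members over them -1.65, interval -1.96 to -1.36). Its relatives Zfp36l1, at 360 CPM against 1031 CPM in NK and ILC1 cells, and Zfp36l2, at 749 CPM against 1048 CPM, differed by -1.52 and -0.48 on the log2 scale. Zfp36 is itself an immediate-early gene, and 11 of 14 such genes were lower in the same comparison, as given above. The part of handling or activation in this difference was not tested.

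Against CD8-negative αβ T cells, members held more of 9 of 17 measured NK receptor genes, of 6 of 12 cytotoxic genes and of CD103, and less of all 7 measured helper and regulatory T genes. This group comprised cells with at least 2 CD3 UMIs, at least 2 UMIs of Trac, Trbc1 and Trbc2 together and none of Cd8a, Cd8b1, Trdc or Foxp3. It had no effector minimum. Genes that go with Gzma, Gzmb or Ccl5, or against them, can therefore differ through the rule for members. Of 8223 genes tested, 264 (3.21%) lay 2-fold or more higher in members and 492 (5.98%) lay 2-fold or more lower, with a median log2 ratio of 0.08. The comparison cells had 5370591 UMIs in all and members 783883. The minimum of 50 UMIs over both groups therefore favoured genes high in the comparison cells, and the excess of lower genes cannot be told apart from it. Without cells rich in macrophage and dendritic cell markers, 183 of 7804 were higher and 526 lower. Without cells in which immunoglobulin took more than 1% of UMIs, 213 of 8120 were higher and 512 lower. Cd7, a surface protein abundant on intraepithelial lymphocytes, was detected in 83.2% of members and 12.1% of CD8-negative αβ T cells, at 998 CPM against 49.9 CPM (log2 ratio 4.32, interval 4.12 to 4.53). Itgae stood at 360 CPM against 29.8 CPM (log2 ratio 3.59, interval 3.31 to 3.88), and Itga1, the α1 integrin that binds collagen IV, at 251 CPM against 105 CPM (log2 ratio 1.26, interval 1.02 to 1.50).

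Of 17 measured NK receptor genes, 9 were higher, 1 was lower and the median was 1.87. Klrd1, the CD94 chain, was counted at 301 CPM against 33.0 CPM (log2 ratio 3.19, interval 2.90 to 3.48), and its partners Klrc1 and Klrc2 at log2 ratios of 4.60 (interval 3.87 to 5.40) and 3.09 (interval 2.50 to 3.68). Klrc1, however, was detected in 19.5% of members only. Cd160 was at 634 CPM against 116 CPM, Cd244, the 2B4 receptor, at 107 CPM against 6.70 CPM, and Klrk1, the NKG2D receptor, at 159 CPM against 33.0 CPM. Klre1, from the given markers, was at 97.0 CPM against 16.4 CPM.

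Cytotoxic effector genes were higher for 6 of 12 measured and lower for none (median 1.03). Only members were chosen for effector transcripts, so this list does not test their cytotoxic character. The 41 CD8 T cells below the effector minimum held 0 CPM of Gzmk and 574 CPM of Nkg7. Without the cells rich in macrophage and dendritic cell markers 4 were higher and 1, Klrg1, was lower (median 0.78), and Serpinb9 (0.84) and Serpinb6b (0.51) were no longer past 2-fold. Gzmk was at 221 CPM against 49.7 CPM, Nkg7 at 1491 CPM against 483 CPM (log2 ratio 1.63, interval 1.53 to 1.73) and Cst7, an inhibitor of cathepsins in cytotoxic cells, at 231 CPM against 43.2 CPM. Chemokines went with them, Ccl4 at 1518 CPM against 178 CPM (log2 ratio 3.09, interval 2.97 to 3.22). Crtam, a surface molecule of cytotoxic cells (4.13), Nr4a2 (3.38), Capn3 (3.72), Ncald (3.39) and Car2 (2.68) were also among the 12 highest. Zeb2 was higher, at 130 CPM against 27.9 CPM.

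All 7 measured markers of helper and regulatory T cells were lower in members (median -2.05). Cd4 was at 17.9 CPM against 183 CPM, Cd40lg, the helper ligand for B cells, at 30.6 CPM against 247 CPM, and Tnfrsf4, the OX40 receptor, had 1 UMI in members against 834 (log2 ratio -6.93, interval -12.23 to -4.45). Maf, a factor of helper and interleukin 10 producing T cells, was at 79.1 CPM against 878 CPM (log2 ratio -3.47, interval -3.86 to -3.11). Of 15 measured cytokine genes 2 were higher and 8 lower (median -1.58), with single member UMIs for Il10, Il21 and Il17a. Of 22 cytokine receptor genes 0 were higher and 11 lower (median -1.02), with Il12rb2 at 12.8 CPM against 191 CPM, Il18r1 at 57.4 CPM against 498 CPM and Il7r at 519 CPM against 1512 CPM. Ccr9, the receptor for the small-intestinal chemokine CCL25, was at 334 CPM against 669 CPM. Of 6 measured circulation genes 3 were lower, S1pr1 and Ccr7 among them, and of 10 checkpoint genes 3 were higher (Lag3, Cd160 and Cd244) and 1 lower (Ctla4).

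T cell receptor signalling genes differed little from this comparison group, with 0 of 16 higher, 3 lower and a median of -0.37. Cd28 was at 177 CPM against 456 CPM (log2 ratio -1.36, interval -1.62 to -1.12) and Cd5 at 125 CPM against 244 CPM (log2 ratio -0.96). Thy1 was at 292 CPM against 243 CPM. Podnl1 (-3.39), Ltb4r1 (-5.12, 1 UMI in members) and 5830411N06Rik were among the 12 lowest. The last had no UMI in members, and was 13.9-fold lower with 3 counts set there and at least 11.2-fold by the nearer interval end. The lowest of all by the ranking were Igkc, Jchain and Igha, immunoglobulin genes, at log2 ratios of -6.29, -6.21 and -5.17. In 14 of the CD8-negative αβ T cells immunoglobulin took more than 1% of UMIs, and without those cells the ratios were -0.31, -0.20 and -0.13.

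Members fell into unequal parts by CD8β and the δ chain, a division set after the data were seen. The 3 groups were 10 members with Trdc (median 5554.5 UMIs), 21 with neither Trdc nor Cd8b1 (median 5151) and 82 with Cd8b1 and no Trdc (median 5522). Fcer1g stood at 984 CPM (interval 770 to 1239) in the Trdc cells, 571 CPM (459 to 703) in the cells with neither and 36.0 CPM (22.0 to 55.7) in the Cd8b1 cells, found in 6, 7 and 6 cells. The Poisson intervals of the first 2 groups lay above that of the third. Ikzf2, the Helios factor, followed the same order at 820, 501 and 95.5 CPM, as did Klrd1 at 738, 436 and 205 CPM. Other NK receptor genes did not share it, with Klrk1 at 95.6, 289 and 132 CPM and Cd160 nearly level at 724, 661 and 615 CPM. In the division by Cd8b1 over all genes below, 2 of 8 on that list were higher without Cd8b1 (Klrd1 and Cd244). Another 2 were lower (Klrc1 and Cd226) and 4 neither. Tcrg-C1, a γ constant region, was at 779, 109 and 18.0 CPM. Without the 5 members rich in macrophage and dendritic cell markers, described below, Fcer1g stood at 984, 756 and 20.8 CPM, 10 of its 20 UMIs in the Cd8b1 cells having come from them.

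Some genes of T cell receptor signalling and costimulation lay in the reverse order, and in the division by Cd8b1 over all genes below, 3 of 15 on that list were lower without Cd8b1 (Lat, Cd6 and Cd28) and 12 neither. Cd6 was at 27.3 CPM in the Trdc cells, 83.4 CPM in the cells with neither and 209 CPM in the Cd8b1 cells, and Cd28 at 54.6, 77.0 and 222 CPM. Thy1 was at 95.6 CPM (interval 38.4 to 197), 167 CPM (109 to 244) and 353 CPM (306 to 406), and Lat at 219, 270 and 591 CPM. Themis, of the same list, was at 137 CPM in the Trdc cells, 89.8 CPM in the cells with neither and 141 CPM in the Cd8b1 cells, with no such order. Cd5 did not follow the order either, at 27.3, 199 and 117 CPM, and the cells with neither gene held the most of it. Itgae was alike in level in all 3, at 437 CPM (299 to 617), 308 CPM (227 to 408) and 364 CPM (316 to 418). The summed level of CD103 transcripts thus did not follow CD8β, though Itgae was detected in 90.0%, 81.0% and 68.3% of the cells.

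**Figure D3:**
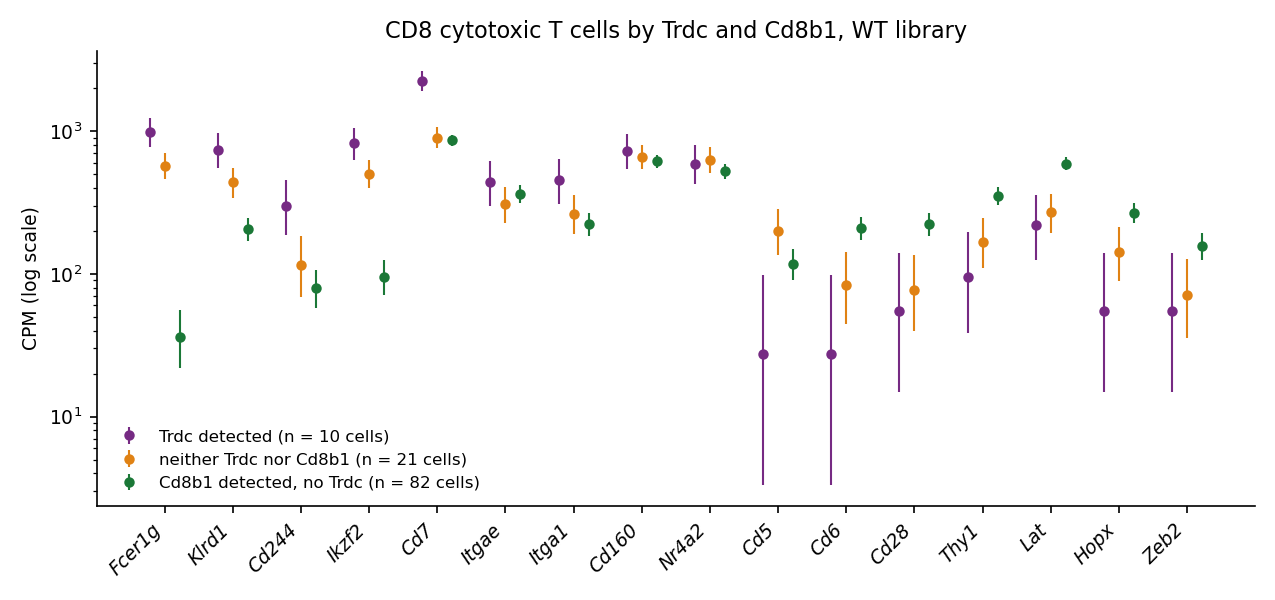
CPM of 16 genes (log scale, exact Poisson intervals) in members with Trdc, with neither Trdc nor Cd8b1, and with Cd8b1 but no Trdc. Fcer1g stands at 984, 571 and 36.0 CPM in these groups and Thy1 at 95.6, 167 and 353 CPM, while Itgae lies between 308 and 437 CPM.

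Over all genes, the 30 members without Cd8b1 were set against the 83 with it. Of 2431 genes with at least 50 UMIs over both, 57 (2.34%) lay 2-fold or more higher without Cd8b1 and 87 (3.58%) lower by as much, with a median log2 ratio of -0.05. Fcer1g had the highest ranked ratio, 3.90 (interval 3.31 to 4.55), at 712 CPM against 47.6 CPM. Klrd1 (1.44, interval 1.06 to 1.82), Cd244 (1.12), Mfsd10 (1.53), Chn2 (1.39), Rbm26 (1.29), 4930453N24Rik (1.26) and 4930503L19Rik (1.11) followed. Among the 8 lowest ranked were Ptger4, a prostaglandin E2 receptor (-1.89, interval -2.93 to -0.99), Lat (-1.29, interval -1.74 to -0.87), Cd28 (-1.55), Cd6 (-1.56), Klrc1 (-2.05), Ccl4 (-1.15), Bzw2 (-2.11) and Gramd3 (-1.91).

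One member without Cd8b1 carried 552 UMIs of macrophage and dendritic cell markers, which raised their summed level there to 2719 CPM, against 331 CPM in the members with Cd8b1. All 11 of those markers were detected among members, and 5 members with at least 5 such UMIs held 87.9% of them. Without these 5 cells the summed level over members was 141 CPM, in the cells without Cd8b1 29 genes lay 2-fold or more higher and 70 lower by as much, and the Fcer1g ratio was 4.66. Ifng was 1.27 higher on the log2 scale without Cd8b1, but 98.7% of those UMIs came from 1 cell, and its ratio was -4.89 when the 5 cells were left out.

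Granzymes were unevenly spread over members. Gzma (chr13:113093825-113100981) was detected in 59 members and Gzmb (chr14:56258838-56262260) in 57, with 49 members holding both, 10 only Gzma, 8 only Gzmb and 46 neither. The highest single-cell counts were 435 Gzma and 122 Gzmb UMIs, medians were 1 and 1, and the 12 richest cells held 64.1% of all Gzma UMIs. Granzyme-bearing cells were thus 67 of 113 (59.3%, interval 49.6% to 68.4%), against 2.15% and 1.56% of ILC2 cells with a Gzma or a Gzmb UMI. Gzmk (chr13:113171608-113225908), which the membership rule did not use, was found in 46 members (40.7%) with at most 25 UMIs, with no Gzmk UMI in ILC2 cells.

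**Figure D4:**
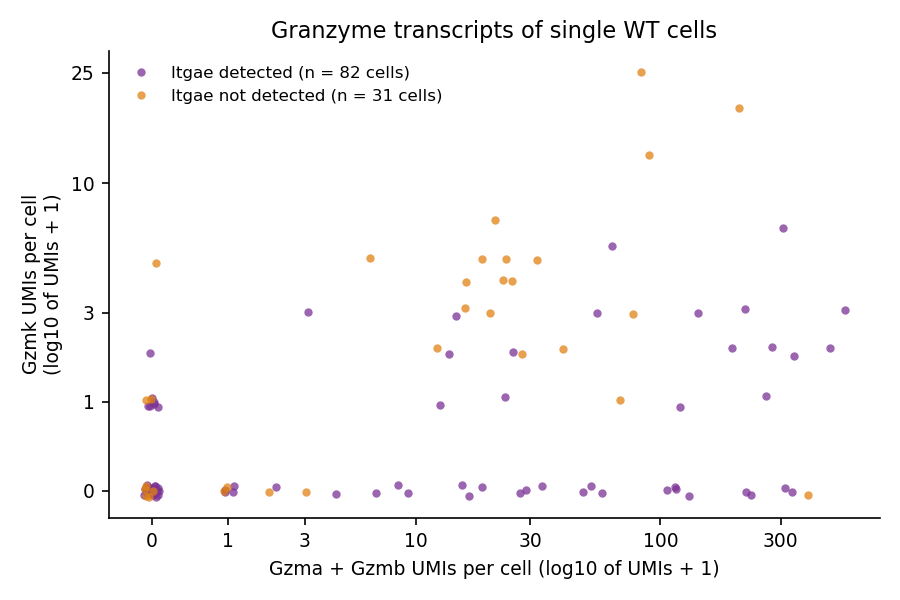
Gzma plus Gzmb UMIs (x axis) and Gzmk UMIs (y axis) of each of the 113 WT members, both as log10 of UMIs + 1 with small random offsets so that points do not hide each other, coloured by whether an Itgae UMI was counted. Of the 82 cells with Itgae 30.5% lie above 0 for Gzmk and of the 31 without it 67.7%, and the 3 cells with at least 10 Gzmk UMIs all lack Itgae.

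The 3 granzyme genes are shown here with the 250 bases before their RefSeq start sites, since their transcripts divided the members. RUNX and T-box factors act on cytotoxic genes, and capitals mark matches to the RUNX core TGTGGT (or ACCACA on the other strand) and the T-box core AGGTGT (or ACACCT), which do not overlap here. Sequences are from RefSeq on GRCm38.p6, on the minus strand, 5′ to 3′, at chr13:113100982-113101231 for Gzma, chr14:56262335-56262584 for Gzmb and chr13:113180966-113181215 for Gzmk.
Gzma: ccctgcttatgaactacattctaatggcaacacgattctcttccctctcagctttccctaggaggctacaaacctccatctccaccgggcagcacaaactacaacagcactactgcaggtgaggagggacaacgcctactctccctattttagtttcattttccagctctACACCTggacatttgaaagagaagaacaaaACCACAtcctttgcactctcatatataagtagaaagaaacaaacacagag
Gzmb: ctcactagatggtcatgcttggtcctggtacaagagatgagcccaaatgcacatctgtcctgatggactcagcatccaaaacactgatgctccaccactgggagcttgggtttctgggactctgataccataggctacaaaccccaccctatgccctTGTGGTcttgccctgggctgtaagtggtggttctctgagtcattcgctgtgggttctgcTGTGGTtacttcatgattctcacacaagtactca
Gzmk: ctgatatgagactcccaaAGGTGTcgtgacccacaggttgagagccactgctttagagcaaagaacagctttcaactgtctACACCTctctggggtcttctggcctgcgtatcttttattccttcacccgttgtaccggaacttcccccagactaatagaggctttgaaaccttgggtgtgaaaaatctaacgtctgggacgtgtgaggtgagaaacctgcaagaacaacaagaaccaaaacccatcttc
Gzma held 1 RUNX and 1 T-box match, Gzmb 2 and 0, and Gzmk 0 and 2. Among 32851 promoter windows of the same length, 14.0% held a RUNX core and 11.8% a T-box core, so a single match is common, and a match describes letters only.

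Members with Gzma or Gzmb were compared with the 46 without, another division set after the data were seen. Median depths were 5251 and 5550 UMIs. Of 2432 genes, 79 (3.25%) lay 2-fold or more higher in the granzyme-bearing cells and 30 (1.23%) lower by as much, with a median of 0.03. Gzmk was at 327 CPM against 49.8 CPM (log2 ratio 2.72, interval 1.95 to 3.59) and Prf1, perforin, at 106 CPM against 23.2 CPM (2.19, interval 1.04 to 3.57). Ccl4 (2.08, interval 1.84 to 2.34), Klrc1 (2.11), Ccr2 (1.64), Serpinb9 (1.44), Cxcr6 (1.30) and Dusp2 (1.28) were higher as well. Of 10 measured cytotoxic effector genes outside the rules 3 were higher and 0 lower (median 0.43).

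The cells without these granzymes held more of other genes. Xcl1 was at 856 CPM against 135 CPM (log2 ratio -2.67, interval -3.08 to -2.27), so that this chemokine ran opposite to Ccl4. Tcf7, the memory factor, was at 219 CPM against 66.3 CPM (-1.72, interval -2.38 to -1.09), and Fcer1g at 445 CPM against 97.4 CPM. Emb (-1.19), Car2 (-1.27), Txk, a Tec family kinase (-1.19), Plgrkt (-1.20), Tcrg-C4 (-1.01) and Trbc1 (-0.90, not 2-fold) completed the ranking. Itgae was at 357 CPM and 365 CPM, so that its summed level did not separate the groups. By cells, Gzma was found in 48.8% of members with an Itgae UMI and 61.3% of those without, and Gzmb in 45.1% and 64.5%. All 6 measured cycling genes were higher with granzymes, and all 8 members with Mki67 also held Gzma, but 1 cell held 47.5% of the Mki67 and 47.4% of the Top2a UMIs of the granzyme-bearing cells. The 5 cells rich in macrophage and dendritic cell markers bear on the count: without them 44 genes were higher and 21 lower.

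Division by Gzmk gave a partly shared picture, with Klrc1, Ccl4, Dusp2 and Ccr2 among the 8 highest and Xcl1 and Emb among the 8 lowest in both divisions, which use the same cells. The 46 members with Gzmk (median 5168 UMIs) were compared with the 67 without (median 5531), again after the data were seen. Of 2431 genes, 55 (2.26%) lay 2-fold or more higher and 75 (3.09%) lower by as much, with a median of -0.01. Klrc1 (2.47, interval 1.63 to 3.40), Klrc2 (1.93, interval 1.06 to 2.86), Ctla2a (2.43), Dusp2, a phosphatase of activated T cells (1.92), Ccr2 (1.89), Art2b (1.72) and Ccl4 (1.42) were higher. Zeb2 was at 225 CPM against 66.2 CPM (1.77, interval 1.14 to 2.42). Eomes, a T-box factor of effector and memory CD8 T cells, was too sparse for the ranking, but 15 of the 16 members with an Eomes UMI also had Gzmk, and so did 8 of the 9 with Klrg1, a receptor of effector cells.

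Residency and homing genes did not separate the members with and without Gzmk as a list. Of 18 measured, 1 was higher with Gzmk (Ccr2), 1 was lower (Ahr) and 16 were neither, with a median of 0.02. Ahr, the aryl hydrocarbon receptor that intraepithelial lymphocytes need, was at 262 CPM against 50.7 CPM (log2 ratio -2.37, interval -3.22 to -1.61), and Xcl1 at 630 CPM against 88.8 CPM (-2.83, interval -3.44 to -2.26). Fos (-1.80), Fcer1g (-1.82), Emb (-1.44), Smim3 (-2.16), Mia2 (-1.99) and Gm12840 (-3.32) were lower with Gzmk too. Gzmk was found in 30.5% of the 82 members with Itgae and in 67.7% of the 31 without, whereas the summed Itgae levels were 342 CPM with Gzmk and 371 CPM without. Fewer of the cells with Gzmk thus had an Itgae UMI (54.3% against 85.1%), though the level was nearly the same. Gzma, Gzmb and Ccl5, which the membership rule used, stood at 10052, 2312 and 24864 CPM with Gzmk and at 3850, 1020 and 11306 CPM without. Without the 5 cells rich in macrophage and dendritic cell markers, 34 genes were higher and 44 lower with Gzmk.

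**Figure D5:**
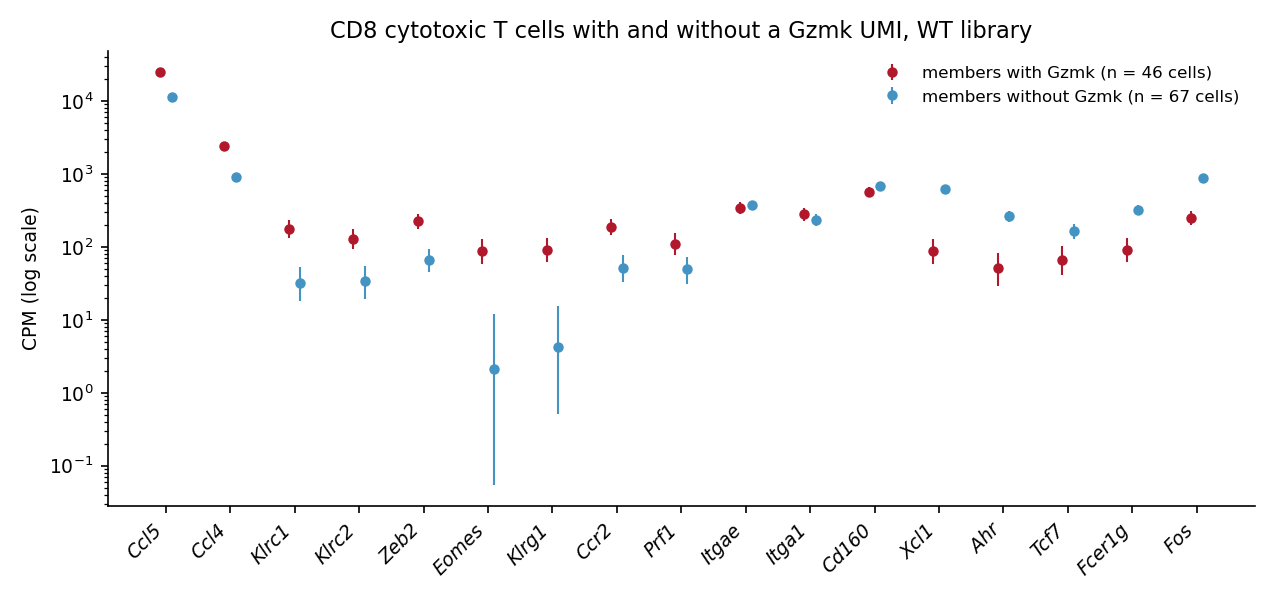
Levels of named genes in members with and without Gzmk, in CPM on a log scale with exact Poisson intervals. Zeb2 stands at 225 and 66.2 CPM, and Ahr at 50.7 and 262 CPM, in the members with and without Gzmk.

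Markers of other cell types were summed over WT members as well. Of 12 epithelial markers 4 were detected, at 24.2 CPM summed, against 33.0 CPM in NK and ILC1 cells, and Vil1, Krt20 and Fabp1 were at 0. B and plasma cell markers summed to 936 CPM in members and 997 CPM in NK and ILC1 cells, with Cd79a and Mzb1 at 0, and 107 members had at least 2 such UMIs. The median cell held 947 CPM of them in members and 957 CPM in NK and ILC1 cells, and the part of free RNA was not tested. Helper and regulatory T markers summed to 450 CPM in members and 445 CPM in NK and ILC1 cells, with at least 2 UMIs in 58 members. Markers of ILC2 summed to 80.4 CPM in members and 363 CPM in NK and ILC1 cells, where 53 of 207 cells had at least 2 such UMIs. Those of ILC3 summed to 94.4 CPM in members and 1145 CPM in NK and ILC1 cells. The ILC3 list holds Ncr1, which the NK rule used. How far such transcripts in the comparison cells bear on the differences from members was not tested. Scrublet predicted 2 members to be doublets of 37 in the library (1.09%).

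The Zfp36-/- library held 2 members, which allow no comparison of genotypes. The first, with 6198 UMIs, had 1 Cd8a, 0 Cd8b1, 2 Trac and 1 Trdc UMI, no Gzma, Gzmb or Itgae, 34 Ccl5 and 5 Fcer1g UMIs. The second, with 5437 UMIs, had 4 Cd8a, 0 Cd8b1, 0 Trac and 9 Trdc UMIs, with 193 Gzma, 41 Gzmb, 257 Ccl5, 14 Itgae and 7 Fcer1g UMIs. Both thus lay on the side without Cd8b1 and with Trdc and Fcer1g, and neither had a Zfp36, Thy1 or Cd5 UMI. In that library 32 kept cells had a Cd8a UMI and 4 of them had CD3 transcripts, against 171 and 154 in WT. NK and ILC1 cells numbered 230, close to the 207 of WT, and CD8-negative αβ T cells 66 against 878. The smaller number of members came with fewer cells bearing CD3 transcripts. Members were also a smaller share of those cells, at 1.63% (interval 0.198% to 5.75%) against 8.61% (interval 7.15% to 10.3%) in WT. Genotype, mouse pool, sort and library cannot be told apart.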

How the data were processed

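Droplet 3 prime RNA-seq (Chromium Single Cell 3' v2) of sorted small-intestinal lamina propria lymphocytes gave 1 library per genotype. The deposited values are raw counts of UMIs per gene and barcode. They were made by the authors with Cell Ranger 3.1.0, per the file headers, on mm10, per the submitters' processing notes; the annotation release is not given in the sources used here. Of 31053 features, 30934 matched GENCODE M21 by identifier, which gave coordinates.

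Barcodes with at least 500 genes and at most 10% mitochondrial UMIs were kept. UMIs were summed over the cells of a group and divided by the group's total (CPM). Genes with at least 50 UMIs over both groups received a log2 ratio with an exact 95% interval from the binomial split of UMIs, and a ratio past 2-fold was counted. In each comparison this minimum favours genes high in the group with more UMIs in all. A gene with no UMI in 1 group was set to 3 counts. Shares carry Clopper-Pearson and levels Poisson intervals. The method was tested on simulated data. In that test of members against NK and ILC1 cells over 5150 genes, 95.6% of unchanged genes had an interval that held the truth.

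Named genes were the 12 highest and 12 lowest (8 and 8 within members) by the interval end nearest to 0, detected in at least 10% of cells of the higher group, with no cell over 20% of its UMIs, V segment, ribosomal and mitochondrial genes left out. To these came members of 22 lists (260 of 263 symbols matched). Further genes that were neither listed nor ranked, in the cell by cell accounts, were chosen after their values were seen. Members and lists were chosen with earlier results of these data known. The planned contrast of Trac and Trdc type cells had only 3 cells on 1 side, so members were instead divided by Gzma or Gzmb, Gzmk, Cd8b1 and Trdc, after the data were seen. The rule for NK and ILC1 cells held 1 further condition, which, like some single genes, is not reported here. Scrublet in scanpy 1.11.5 marked 0.150% of the Zfp36-/- cells, too few to have worked. Doublets were kept and left out in an alternative. Python 3.11.15, numpy 2.4.6, scipy 1.17.1, pandas 2.3.3 and matplotlib 3.10.9 were used.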

Additional observations from a re-analysis of the deposited data

How the results depend on the processing

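Of the values that answer a comparison, 79 stayed within the spread set for them under the alternatives and 19 moved. None of these changed direction. The balance of genes higher and lower did change against NK and ILC1 cells with the Eomes comparison below. It also changed for absent Cd8b1 with at least 200 UMIs per gene, from 57 higher and 87 lower to 9 and 8. Ifng among members without Cd8b1 changed direction too, as given above. Thinned to 2000 UMIs, the share of members with Trac and no Trdc was 71.2% and that with Cd8b1 57.7%. With at least 2 UMIs of each chain set as the bar, 18.6% were αβ only, a split that does not give the receptor type, as stated above. With at least 200 UMIs per gene, fewer genes were tested, and the numbers higher and lower were 41 and 135 against NK and ILC1 cells, 53 and 174 against CD8-negative αβ T cells, 10 and 4 for Gzma or Gzmb, 6 and 14 for Gzmk and 9 and 8 for absent Cd8b1. With the 9 NK cells that held Eomes as the comparison, they were 364 and 136 of 2637 tested. There the UMI minimum favoured genes high in members, as given above. Without the cells rich in macrophage and dendritic cell markers, an alternative added after the data were seen, 44 genes were higher and 21 lower with Gzma or Gzmb, 34 and 44 with Gzmk and 29 and 70 without Cd8b1. In the same alternative, 148 of 4804 genes were higher and 451 lower against NK and ILC1 cells. Against CD8-negative αβ T cells they were 183 and 526 of 7804. Of the named genes' ratios, 687 kept within their spread and 36 moved. The contrast of Trac with Trdc type cells and its alternatives were not run, with 3 cells on 1 side. No paired analysis was possible because each genotype was 1 library. Depth limits genes under 50 UMIs and every share of cells with a UMI.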

Other observations

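V segment genes, which the ranking left out, also varied between groups. Trgv2, a γ chain V segment, was detected in 38 of the 113 WT members (33.6%, 60 UMIs), 4 of them among the 10 members with Trdc. It was detected in 105 of 878 CD8-negative αβ T cells, 4.88% of the 41 CD8 T cells below the effector minimum, 0.483% of NK and ILC1 cells and 0.195% of ILC2 cells. Tcrg-V1, another γ chain V segment, was found in 9.73% of members, 2.90% of NK and ILC1 cells and 2.93% of ILC2 cells. Trav13-4-dv7 had 20 UMIs in 4 members. These genes were chosen after their values were seen.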
